A study of Mus musculus with 28 samples.

Results

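The glucocorticoid receptor, its encoding gene Nr3c1 and 9 of the genes best known to answer to it were followed in 28 libraries of mouse mammary cell lines. The 10 genes were Nr3c1, Fkbp5, Tsc22d3, Klf9, Zbtb16, Sgk1, Dusp1, Errfi1, Cebpd and Hif3a. They are a fixed list of symbols, drawn up with earlier results of these data known, and each matched 1 of the 56748 Ensembl gene identifiers counted. HC11 is an untransformed mouse mammary epithelial line that can be brought to lactogenic differentiation by hormones, and 4T1 is a mouse mammary cancer line. There were 10 HC11 libraries labelled DOX + DIP, 8 libraries of 4T1 labelled DOX and 10 HC11 libraries with the label DOX alone. Neither DOX nor DIP is spelled out, DOX is on all 28 libraries, and no construct, vector, dose, time or clone is named. Hormone mixes used to differentiate HC11 commonly hold a synthetic glucocorticoid, and the labels do not say whether DIP does. Nothing in the labels says which libraries came from separate cultures, so each p-value measures the spread between libraries, which may be technical.

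In the absence of hormone the receptor is held in the cytoplasm by Hsp90 and its co-chaperones. Bound to glucocorticoid it moves to the nucleus and binds DNA, often as a dimer on an inverted repeat of the hexamer AGAACA. It raises genes such as Fkbp5 and Tsc22d3 and lowers many inflammatory genes, and in the mammary gland it acts together with prolactin signalling in milk production.

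Depth was 134117581 to 222065843 counts per library in HC11 DOX + DIP, 174275141 to 198008179 in 4T1 and 135955692 to 185616382 in HC11 DOX. Levels are CPM, counts scaled to a common library total, with TMM factors, which set library totals against the bulk of the genes. All 8 mammary epithelial markers were detected in each group, with a summed level of 456 to 2305 CPM in HC11 DOX + DIP, 3044 to 4377 CPM in 4T1 and 3446 to 8031 CPM in HC11 DOX. Most of the HC11 DOX sum was Krt5 and Krt14, at means of 3054 and 1965 CPM, against 472 and 449 CPM with DIP. The mean log2 CPM of the 8 markers was 4.63 to 7.08 with DIP, 7.55 to 8.38 in 4T1 and 6.33 to 6.89 in HC11 DOX. The proliferation gene Mki67 averaged 10.7 ± 8.15 CPM in HC11 DOX + DIP (SD, n = 10), 426 ± 62.8 CPM in 4T1 (n = 8) and 287 ± 92.9 CPM in HC11 DOX (n = 10). The milk gene Csn2 had 20 counts in all the HC11 DOX + DIP libraries together, and 0 in both other groups.

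HC11 DOX + DIP libraries 8 and 10 stood apart from the other 8 of their group. Tsc22d3, Klf9 and Zbtb16 were above the HC11 DOX range in both, as in the rest of the group, while Fkbp5, Sgk1 and Cebpd were below that range. Their epithelial markers summed to 456 and 559 CPM, against 1613 to 2305 CPM in the other 8. The mean log2 CPM of these markers was 4.63 and 4.82, against 6.41 to 7.08. Not every marker was lower, since Cdh1 was at 197 to 252 CPM over all the DIP libraries. Fibroblast markers summed to 2.57 and 3.93 CPM in libraries 8 and 10, against 47.1 to 249 CPM. Mki67 was at 8.53 and 10.1 CPM in them, within the range of the other 8, which was 3.25 to 27.6 CPM. The part of these differences in the results was not tested, and for DIP against HC11 DOX the fold changes of Nr3c1 and the 7 targets with reads in both groups, and the list counts, are given with and without them. Libraries 8 and 10 were set apart by values that include those of the 10 genes, so results without them are not read as tests. In bulk RNA, fewer cells that express a gene and less RNA per cell cannot be told apart.

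Promoter sequence was read for 7 of the 10 genes, with 15 transcript starts, from RefSeq on GRCm38.p6, as the 250 bases before each start. Zbtb16, Cebpd and Nr3c1 are named only. Both strands were searched for the full palindromic element (AGAACA, any 3 bases, TGTTCT), for its arm AGAACA alone, for the cAMP response element TGACGTCA and for TATAAA, where each full element also counts as 2 arms. The windows shown are those that held the full element, the cAMP response element, or, for Tsc22d3, the arm. Capitals mark these matches, with TGTTCT being the arm read on the opposite strand, and each window is written 5′ to 3′ on the strand of its gene.
Sgk1, start 5, chr10:21993640-21993889, plus strand: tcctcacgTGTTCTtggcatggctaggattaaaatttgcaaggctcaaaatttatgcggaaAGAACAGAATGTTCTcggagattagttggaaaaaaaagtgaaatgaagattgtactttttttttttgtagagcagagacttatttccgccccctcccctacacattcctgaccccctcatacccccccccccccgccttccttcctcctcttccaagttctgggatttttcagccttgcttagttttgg
Dusp1, chr17:26508473-26508722, minus strand: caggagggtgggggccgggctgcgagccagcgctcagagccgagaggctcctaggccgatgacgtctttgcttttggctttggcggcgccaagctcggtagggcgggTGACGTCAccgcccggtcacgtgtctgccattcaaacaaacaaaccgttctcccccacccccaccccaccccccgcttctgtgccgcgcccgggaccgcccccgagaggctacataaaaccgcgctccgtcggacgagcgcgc
Errfi1, start 2, chr4:150854820-150855069, plus strand: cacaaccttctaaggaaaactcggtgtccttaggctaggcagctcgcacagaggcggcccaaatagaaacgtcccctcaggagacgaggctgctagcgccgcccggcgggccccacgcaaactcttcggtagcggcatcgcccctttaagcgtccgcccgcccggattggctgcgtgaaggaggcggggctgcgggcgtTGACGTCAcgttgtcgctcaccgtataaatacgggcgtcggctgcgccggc
Tsc22d3, start 3, chrX:140600523-140600772, minus strand: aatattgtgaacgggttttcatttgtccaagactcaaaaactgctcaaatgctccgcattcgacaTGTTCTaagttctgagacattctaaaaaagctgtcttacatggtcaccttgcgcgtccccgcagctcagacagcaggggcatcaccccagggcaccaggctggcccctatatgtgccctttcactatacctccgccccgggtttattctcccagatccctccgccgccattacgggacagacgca

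The full element was found in 1 of the 15 windows, at position -189 from Sgk1 start 5, and in 0.00913% of the 32851 RefSeq windows of the same length. The arm AGAACA was found in 4 of 15 windows and in 16.1% of all windows. The 4 were Tsc22d3 start 3, where its first base is at -185, and Sgk1 starts 1, 4 and 5. Sgk1 has starts 1 to 6 among the windows, and windows of 1 gene are not independent. TGACGTCA was found at -143 in Dusp1 and at -51 in Errfi1 start 2, and in 1.55% of all windows. TATAAA was found in 3 of the 15 windows and in 12.4% of all windows. A match describes the letters in the window and does not show binding.

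Nr3c1 had a lowest, median and highest level of 32.7, 47.3 and 56.2 CPM in HC11 DOX + DIP, 42.1, 46.1 and 49.0 CPM in 4T1, and 30.1, 64.6 and 81.0 CPM in HC11 DOX. The ranges overlapped in every pair of groups, and 1 HC11 DOX library, number 5, held the lowest level of all and also the lowest Mki67 of its group, 87.9 CPM. In the quasi-likelihood test of edgeR, with p-values adjusted after Benjamini and Hochberg, the log2 fold change of Nr3c1 was -0.33 ± 0.15 (SE) for DIP in HC11 (adjusted p = 0.0699, unadjusted p = 0.0341, 95% interval -0.62 to -0.04). It was not called. Without HC11 DOX library 5 it was -0.42 (adjusted p = 0.00615) and without library 9 it was -0.37 (adjusted p = 0.0494). These libraries held the 2 lowest Nr3c1 levels of HC11 DOX, so leaving either out enlarges the fall, and neither fit is read as a test. Over all fits with 1 library left out, the adjusted p was 0.00615 to 0.127. Without HC11 DOX + DIP libraries 8 and 10 the log2 fold change was -0.27 (adjusted p = 0.137). In 4T1 Nr3c1 fell by 0.45 ± 0.14 (SE) on the log2 scale relative to HC11 DOX (adjusted p = 0.00594 in edgeR).

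With DIP, 7 of the 9 tested genes were called higher in HC11 and none lower (median log2 fold change 2.01). Zbtb16, 1 of the 7, passed the filter on low counts only through the DIP libraries, where it is high; of the 8 genes at the filter level in at least 80% of the libraries of both groups, 6 rose and none fell (median 1.95). The filter also dropped Hif3a, which is low in both groups. Over all 23829 genes tested 45.5% were called, 24.5% higher and 21.0% lower, and the median was 0.06. Zbtb16, Tsc22d3 and Klf9 did not overlap between the groups, which was also so for 11.4% of all genes tested. For Zbtb16, kept through the DIP libraries only, the lack of overlap is not read as a result. By edgeR at an unadjusted p under 0.05, 1 gene was lower (Nr3c1), and by DESeq2 and limma voom 0 were called lower. Nr3c1 and Sgk1 were not called. Without HC11 DOX + DIP libraries 8 and 10, again 7 of the 9 were called higher, and none lower, against 27.0% and 25.4% of all genes. Zbtb16, kept by the filter only through the DIP libraries, was again 1 of the 7.

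**Figure D1:**
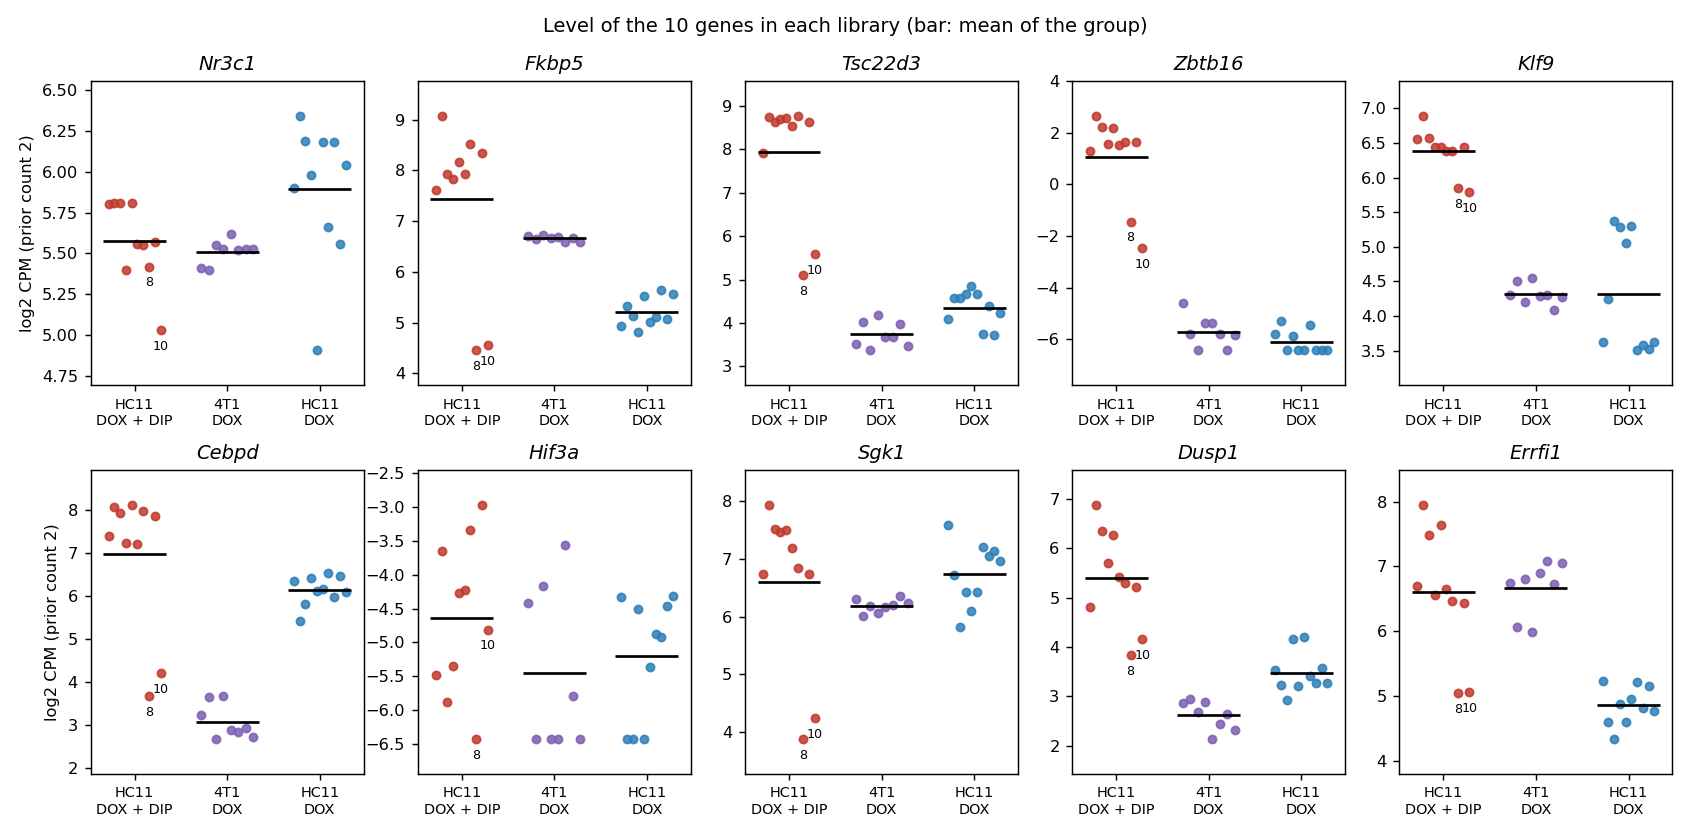
Level of each of the 10 genes in log2 CPM with a prior count of 2 (vertical axis, a range of its own in each panel) in every library of HC11 DOX + DIP, 4T1 DOX and HC11 DOX (horizontal axis), where each point is a library, each bar the mean of its group, and libraries 8 and 10 with DIP are numbered. Tsc22d3, at 34.2 to 433 CPM with DIP, has no library below the HC11 DOX maximum of 28.6 CPM. The 8 Cebpd values of 4T1, at 6.46 to 12.8 CPM, lie under both HC11 groups, narrowly so for DIP library 8 at 12.9 CPM.

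Fkbp5 encodes a co-chaperone that joins the receptor's Hsp90 complex and lowers its affinity for hormone, so that it closes a feedback loop. Its lowest, median and highest level was 22.1, 242 and 538 CPM in HC11 DOX + DIP, 96.1, 102 and 105 CPM in 4T1, and 28.1, 34.7 and 50 CPM in HC11 DOX. In HC11 DOX + DIP libraries 8 and 10 Fkbp5 was at 22.1 and 23.4 CPM, below every HC11 DOX library, while the other 8 libraries, at 195 to 538 CPM, were above them all. Fkbp5 rose 6.64-fold with DIP (log2 fold change 2.73 ± 0.41 SE, adjusted p = 1.28e-05 in edgeR), and the log2 fold change was 3.02 without libraries 8 and 10. In 4T1 it rose 2.64-fold relative to HC11 DOX (log2 1.40 ± 0.10 SE, adjusted p = 1.42e-10), with every 4T1 library above every HC11 DOX library. It was also the steadiest of the genes within 4T1, where the highest library held 1.10 times the lowest.

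Tsc22d3 encodes GILZ, a leucine zipper protein that restrains NF-κB and AP-1. Its lowest, median and highest level was 34.2, 395 and 433 CPM in HC11 DOX + DIP, 10.4, 12.7 and 18.2 CPM in 4T1, and 13.2, 22.5 and 28.6 CPM in HC11 DOX. HC11 DOX + DIP libraries 8 and 10, at 34.2 and 47.7 CPM, were the lowest of their group and were still above all of HC11 DOX. Tsc22d3 rose 15.3-fold with DIP (log2 3.93 ± 0.39 SE, adjusted p = 3.78e-08 in edgeR), and the log2 fold change was 4.21 without libraries 8 and 10. In 4T1 it fell by 0.67 ± 0.16 (SE) on the log2 scale relative to HC11 DOX (adjusted p = 0.000853), with 5 of 8 4T1 libraries under the HC11 DOX minimum. That call was lost in a fit of all 28 libraries (log2 -0.66, adjusted p = 0.0791).

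Zbtb16 encodes PLZF, a zinc finger transcriptional repressor. It had 28 to 1106 counts per library in HC11 DOX + DIP, 0 to 5 in 4T1 and 0 to 2 in HC11 DOX. In CPM its lowest, median and highest level with DIP was 0.168, 3.0 and 6.25, and libraries 10 and 8 were the 2 lowest, at 0.168 and 0.357 CPM. Pooled, 5503 counts with DIP stood against 6 in HC11 DOX, a depth-adjusted ratio of 873 (exact 95% interval 401 to 2380, counting error only). Since Zbtb16 passed the filter on low counts only through the DIP libraries, its edgeR result is not read as a test. Its 12 counts in 4T1 were too few for a test against HC11 DOX. The pooled ratio of 2.58 had an exact 95% interval of 0.898 to 8.39 (counting error only). These pooled intervals leave out the spread between libraries and are not read as tests.

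Klf9, a Krüppel-like factor that mostly acts as a repressor, and Cebpd, a C/EBP family transcription factor, both rose with DIP but stood differently in 4T1. Klf9 had a lowest, median and highest level of 55.2, 86.9 and 118 CPM in HC11 DOX + DIP, 17.1, 19.7 and 23.4 CPM in 4T1, and 11.3, 15.7 and 41.6 CPM in HC11 DOX. It rose 3.71-fold with DIP (log2 1.89 ± 0.28 SE, adjusted p = 1.00e-05 in edgeR) with no overlap, and by 2.0 on the log2 scale without libraries 8 and 10. In 4T1 it was not called against HC11 DOX (log2 -0.24 ± 0.28 SE, adjusted p = 0.459, 95% interval -0.80 to 0.31).

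Cebpd had a lowest, median and highest level of 12.9, 203 and 280 CPM in HC11 DOX + DIP, 6.46, 7.55 and 12.8 CPM in 4T1, and 43.0, 70.7 and 93.2 CPM in HC11 DOX. Libraries 8 and 10 with DIP, at 12.9 and 18.5 CPM, lay below all of HC11 DOX, and the other 8 above it. Cebpd rose 2.51-fold with DIP (log2 1.33 ± 0.39 SE, adjusted p = 0.00826 in edgeR). That call was lost under limma voom (log2 0.86, adjusted p = 0.166), and without libraries 8 and 10 the edgeR log2 fold change was 1.62. In 4T1 Cebpd fell by 3.07 ± 0.17 (SE) on the log2 scale relative to HC11 DOX (adjusted p = 4.48e-12), the largest fall among the genes in that comparison. Exons of Cebpd share 562 bases with Spidr on the opposite strand, and the strand setting of the counting is not given in the sources used here. Spidr averaged 35.6 ± 16.4 CPM in HC11 DOX + DIP (SD, n = 10), 20.6 ± 2.36 CPM in 4T1 (n = 8) and 36.4 ± 4.41 CPM in HC11 DOX (n = 10).

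Hif3a, a hypoxia-inducible factor subunit that can oppose its relatives, was at the edge of detection. It had 0 to 20 counts per library in HC11 DOX + DIP, 0 to 12 in 4T1 and 0 to 6 in HC11 DOX, and the groups overlapped, with 5 of 10 DIP libraries above the HC11 DOX maximum. It did not pass the filter on low counts. With DIP it was not called by DESeq2 (log2 1.06, adjusted p = 0.229) or by edgeR with no filter (1.01, adjusted p = 0.276), and a difference was not detectable at this depth.

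Of the signalling genes, Dusp1 and Errfi1 rose with DIP and Sgk1 was not called. Dusp1, a phosphatase that switches off MAP kinases, had a lowest, median and highest level of 14.3, 41.0 and 118 CPM in HC11 DOX + DIP, 4.40, 6.30 and 7.68 CPM in 4T1, and 7.61, 10.1 and 18.5 CPM in HC11 DOX. It rose 4.44-fold with DIP (log2 2.15 ± 0.32 SE, adjusted p = 1.07e-05 in edgeR), with libraries 8 and 10 inside the HC11 DOX range; without them the log2 fold change was 2.37. In 4T1 Dusp1 fell by 0.93 ± 0.17 (SE) on the log2 scale relative to HC11 DOX (adjusted p = 8.00e-05), with 7 of 8 4T1 libraries under the HC11 DOX minimum. Its exons share 11 bases with Ergic1 on the opposite strand.

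Errfi1 encodes Mig6, an inhibitor of the EGF receptor family. Its lowest, median and highest level was 32.8, 97.2 and 247 CPM in HC11 DOX + DIP, 63.6, 109 and 137 CPM in 4T1, and 20.2, 28.6 and 37.5 CPM in HC11 DOX. It rose 4.02-fold with DIP (log2 2.01 ± 0.30 SE, adjusted p = 1.11e-05 in edgeR) and 3.54-fold in 4T1 relative to HC11 DOX (log2 1.82 ± 0.16 SE, adjusted p = 2.92e-09). All 8 4T1 libraries were above all of HC11 DOX, as were 8 of 10 with DIP, and the 2 DIP libraries inside the range were again 8 and 10. Without them the log2 fold change of Errfi1 with DIP was 2.24.

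Sgk1, a kinase that regulates ion transport and cell survival, is the gene whose window held the full element. Its lowest, median and highest level was 14.8, 129 and 244 CPM in HC11 DOX + DIP, 64.5, 73.5 and 81.3 CPM in 4T1, and 56.3, 115 and 192 CPM in HC11 DOX. In libraries 8 and 10 with DIP it was at 14.8 and 19.0 CPM, below every other library of the series, and 1 DIP library, number 2, was above the HC11 DOX range. The log2 fold change with DIP was 0.20 ± 0.37 (SE; adjusted p = 0.690 in edgeR, 95% interval -0.52 to 0.93), and it was 0.48 without libraries 8 and 10 (adjusted p = 0.0711). In 4T1 Sgk1 fell by 0.65 ± 0.18 (SE) on the log2 scale relative to HC11 DOX (adjusted p = 0.00295), with overlap, and that call was lost in a fit of all 28 libraries (log2 -0.65, adjusted p = 0.0965).

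**Figure D2:**
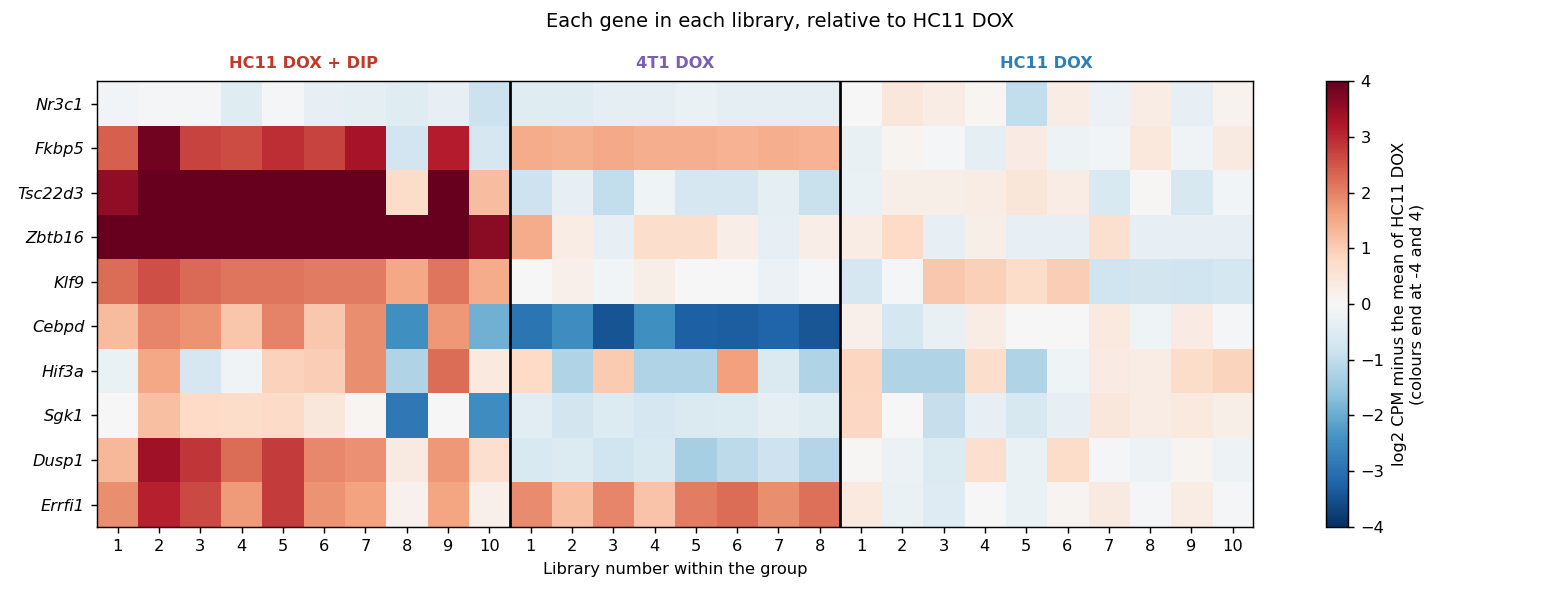
Colour map of log2 CPM minus the HC11 DOX mean, for each of the 10 genes (rows) in each library (columns, grouped as HC11 DOX + DIP, 4T1 DOX and HC11 DOX); colours end at -4 and 4. HC11 DOX + DIP libraries 8 and 10 show Tsc22d3, Klf9 and Zbtb16 above HC11 DOX but Fkbp5, Sgk1 and Cebpd below it.

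Within HC11 DOX, Klf9 and Sgk1 were high in different libraries. In libraries 3 to 6 Klf9 was at 33.2 to 41.6 CPM and Sgk1 at 56.3 to 85.6 CPM, whereas in the other 6 Klf9 was at 11.3 to 19.0 CPM and Sgk1 at 106 to 192 CPM. These libraries share no label that sets them apart, and the split was read from the values, so no test was made. In 4T1, libraries 2 and 4 held the highest Cebpd (12.5 and 12.8 CPM), Tsc22d3 (16.2 and 18.2 CPM) and Klf9 (22.8 and 23.4 CPM), and the lowest Errfi1 (66.7 and 63.6 CPM).

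**Figure D3:**
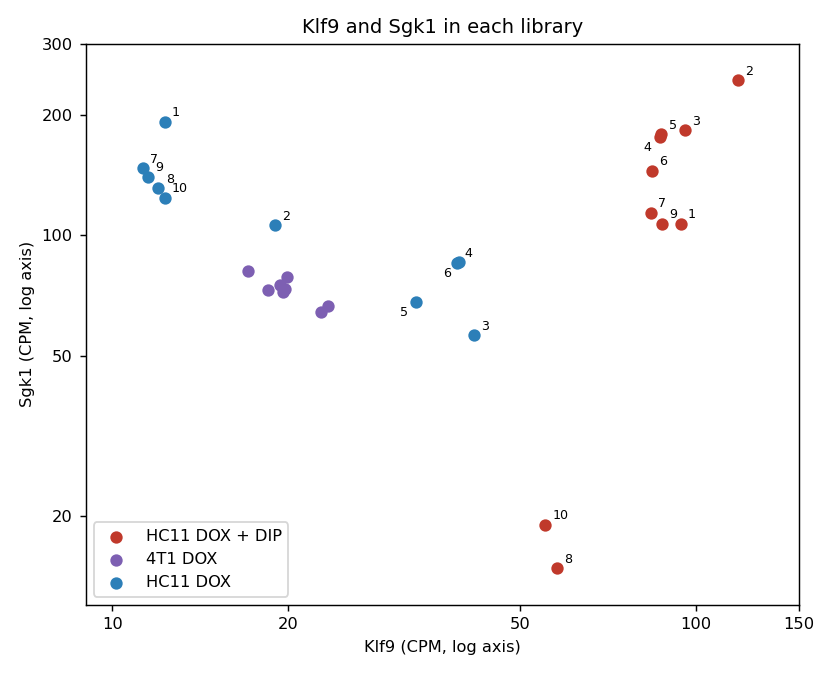
Sgk1 (vertical axis, CPM, log scale) against Klf9 (horizontal axis, CPM, log scale), 1 point per library, with the HC11 libraries numbered within their group, for HC11 DOX + DIP, 4T1 DOX and HC11 DOX. HC11 DOX libraries 3 to 6 lie at higher Klf9 (33.2 to 41.6 CPM) and lower Sgk1 (56.3 to 85.6 CPM) than the other 6.

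Set against HC11 DOX, 4T1 held 2 of the 8 tested genes higher (Fkbp5 and Errfi1) and 5 lower (Nr3c1, Tsc22d3, Sgk1, Dusp1 and Cebpd), with Klf9 not called, 3 genes not overlapping (37.0% of all genes tested) and a median log2 fold change of -0.55. Over all 23875 genes tested, 69.9% were called, 34.3% higher and 35.6% lower, with a median of -0.01. Both comparisons with HC11 DOX share those 10 libraries. Fkbp5 had a log2 fold change of 2.73 with DIP and 1.40 in 4T1, Errfi1 2.01 and 1.82, Tsc22d3 3.93 and -0.67, and Cebpd 1.33 and -3.07.

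Set against HC11 DOX + DIP, 4T1 held 6 of the 9 tested genes lower and none higher, with a median log2 fold change of -2.05. Zbtb16, 1 of the 6, passed the filter only through the DIP libraries; of the 8 genes at the filter level in both groups, 5 were lower and none higher (median -1.65). Over all 24132 genes tested, 73.8% were called, 37.9% lower and 35.9% higher, with a median of -0.04. By edgeR at an unadjusted p under 0.05, and by DESeq2 and limma voom, 0 were higher. The line and DIP differ together here and cannot be told apart. Tsc22d3 fell by 4.52 ± 0.45 (SE) on the log2 scale (adjusted p = 2.51e-08 in edgeR) and Klf9 fell by 2.05 ± 0.13 (SE; adjusted p = 3.31e-11). Cebpd fell by 4.31 ± 0.51 (SE) on that scale (adjusted p = 2.97e-07 in edgeR) and Dusp1 fell by 2.99 ± 0.35 (SE; adjusted p = 2.88e-07). Zbtb16 had 12 counts in 4T1 against 5503, a depth-adjusted ratio of 0.00296 (exact 95% interval 0.00153 to 0.00517, counting error only). These 5 genes did not overlap between the groups, which was also so for 39.6% of all genes tested. For Zbtb16, kept through the DIP libraries only, the lack of overlap is not read as a result. Cebpd was separated narrowly, with 12.8 CPM in the highest 4T1 library and 12.9 CPM in the lowest DIP library.

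Fkbp5 fell by 1.25 ± 0.43 (SE) on the log2 scale in 4T1 relative to HC11 DOX + DIP (adjusted p = 0.0133 in edgeR), with overlap, and that call was lost under limma voom (log2 -0.75, adjusted p = 0.203). Errfi1 (log2 -0.10 ± 0.32 SE, 95% interval -0.74 to 0.53) and Nr3c1 (log2 -0.04 ± 0.10 SE, 95% interval -0.24 to 0.15) were not called. Nr3c1 was called lower when libraries were scaled by total counts only (log2 -0.34, adjusted p = 0.00519), a scaling that moved the median of all genes to -0.34. Sgk1 was not called either (log2 -0.77 ± 0.38 SE, adjusted p = 0.0729). Without HC11 DOX + DIP libraries 8 and 10 it was at -1.12 (adjusted p = 1.66e-06 in edgeR). Nr3c1 without them was at -0.18 (adjusted p = 0.0328). In that fit 8 of 9 genes were called lower, and none higher, against 40.3% and 39.3% of all genes. Libraries 8 and 10 were set apart by values that include Sgk1, which was lowest in them. The fit without them is therefore not read as a test. Zbtb16, kept by the filter only through the DIP libraries, was again among those called and is not read as a test.

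**Figure D4:**
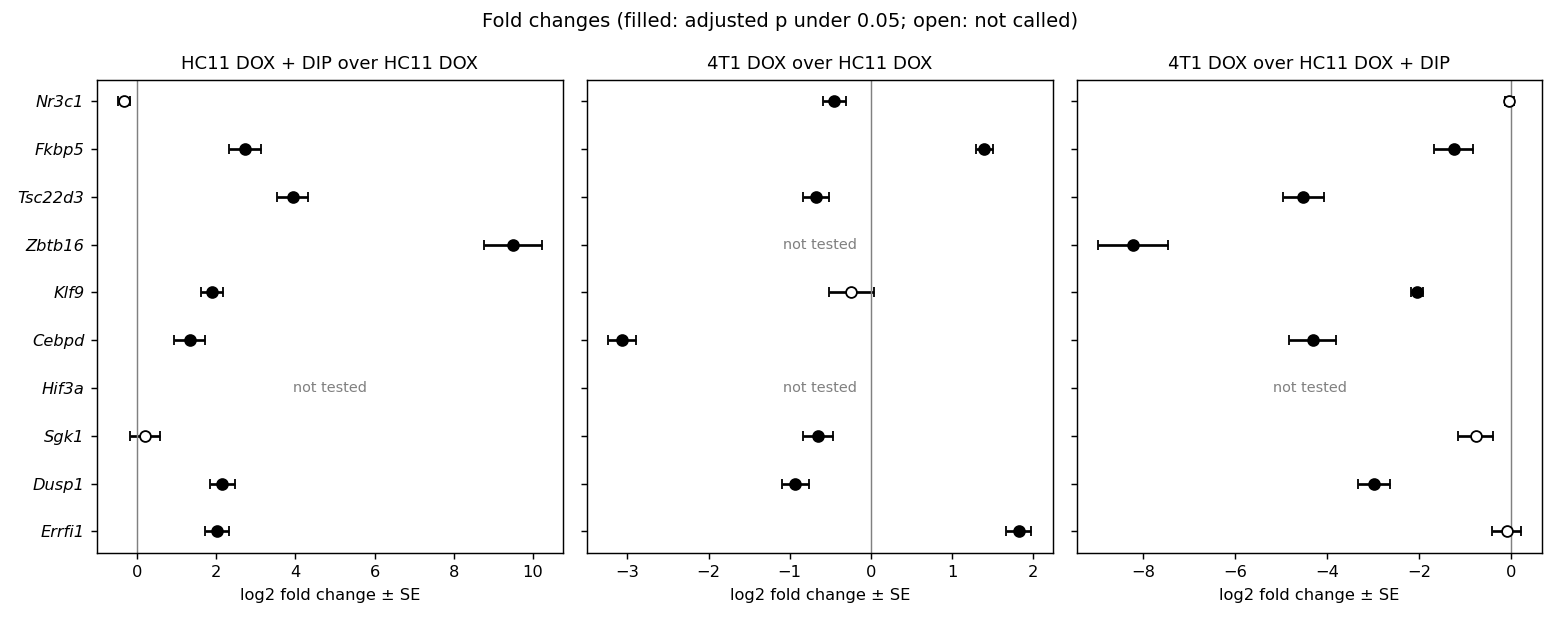
Log2 fold change ± SE (horizontal axis) of each gene (rows) in 3 panels: HC11 DOX + DIP over HC11 DOX, 4T1 DOX over HC11 DOX, and 4T1 DOX over HC11 DOX + DIP; filled points are genes called at an adjusted p under 0.05, and Zbtb16 passed the filter only through the DIP libraries. Tsc22d3 stands at 3.93, -0.67 and -4.52 in the 3 panels, and Errfi1 at 2.01, 1.82 and -0.10.

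Per kilobase of exon, the order of mean levels differed between the groups. With DIP Tsc22d3 was highest (73.4 CPM per kb), followed by Cebpd (47.7), Errfi1 (32.5), Sgk1 (26.3), Fkbp5 (26.1), Klf9 (17.7), Dusp1 (15.3), Nr3c1 (6.29) and Zbtb16 (0.574 CPM per kb). In 4T1 the order was Errfi1 (29.4 CPM per kb), Sgk1 (14.9), Fkbp5 (10.7), Nr3c1 (5.94), Klf9 (4.16), Tsc22d3 (3.12), Cebpd (2.34) and Dusp1 (1.88 CPM per kb). In HC11 DOX it was Sgk1 (23.2 CPM per kb), Cebpd (19.3), Errfi1 (8.21), Nr3c1 (8.02), Tsc22d3 (4.85), Klf9 (4.81), Fkbp5 (3.99) and Dusp1 (3.50 CPM per kb). Some of the 9 steps from 1 gene to the next were larger than the larger SD between libraries of the 2 genes: 2 with DIP, 7 in 4T1 and 3 in HC11 DOX. With DIP, no 2 neighbours from Tsc22d3 down to Nr3c1 differed beyond that spread, and in 4T1 the steps from Errfi1 down to Cebpd all did. In HC11 DOX the steps that did were Cebpd to Errfi1, Nr3c1 to Tsc22d3, and Dusp1 to Hif3a.

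Other genes of the pathway were counted as lists, to be read against the shares of all genes called: 24.5% higher and 21.0% lower with DIP, 34.3% and 35.6% in 4T1 relative to HC11 DOX, and 35.9% and 37.9% in 4T1 relative to HC11 DOX + DIP. Counts without libraries 8 and 10 are over all genes tested, to be read against 27.0% higher and 25.4% lower with DIP. All other counts in these paragraphs are over the genes at the filter level in at least 80% of the libraries of both groups. A gene kept through 1 group only is more likely to be called different.

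Of 23 such further genes known to be induced by glucocorticoid, 18 rose with DIP and none fell (median log2 fold change 1.81, against 0.06 for all genes); at an unadjusted p under 0.05 in edgeR, 0 were lower. In HC11 DOX + DIP libraries 8 and 10 the list's mean log2 CPM was 2.62 and 2.74, within HC11 DOX (2.31 to 3.17). It was 3.93 to 5.39 in the other 8. Single genes differed from that mean. Per1, Angptl4 and Nfil3 were above the HC11 DOX range in all 10 DIP libraries. They were the only 3 of the 24 tested genes on the list without overlap, against 11.4% of all genes tested. Without libraries 8 and 10, 21 of 25 tested genes rose and none fell, a count not limited to genes at the filter level in both groups. Lcn2, a secreted iron-trafficking protein, rose by 4.10 ± 0.66 (SE) on the log2 scale, Angptl4, a lipoprotein lipase inhibitor, by 3.01 ± 0.45, and Mt2, a metallothionein, by 2.97 ± 0.54. Of 7 genes that glucocorticoid represses elsewhere, 4 fell and 1 rose (median -1.16), and without libraries 8 and 10 5 of 9 tested fell and 1 rose. Ptgs2, an inducible cyclooxygenase, averaged 27.1 ± 10.4 CPM with DIP and 61.4 ± 25.0 CPM in HC11 DOX (SD, n = 10 each; log2 -1.16, adjusted p = 0.00156 in edgeR).

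In 4T1 relative to HC11 DOX, 7 of 21 induced genes were higher and 9 lower (median -0.25), close to the shares over all genes. Tiparp was at 2.87 ± 0.21 (SE) on the log2 scale and Txnip, a thioredoxin inhibitor, at -2.75 ± 0.42. Of 7 repressed genes, 5 were higher and 1 lower (median 1.19). Ptgs2 averaged 221 ± 50.1 CPM over the 8 libraries of 4T1 (SD), against 61.4 ± 25.0 CPM over the 10 of HC11 DOX, and the matrix protease Mmp9 averaged 59.6 ± 17.6 CPM in 4T1 and 0.214 ± 0.209 CPM in HC11 DOX. Relative to HC11 DOX + DIP, 4T1 held 16 of 22 induced genes lower and 3 higher (median -1.56), and 5 of 8 repressed genes higher and none lower (median 1.87).

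Of the receptor's 11 chaperones, 4 fell and 1 rose with DIP (median -0.39). In HC11 DOX + DIP libraries 8 and 10 their mean log2 CPM was 8.15 and 8.35, within HC11 DOX (7.65 to 8.40), against 7.52 to 7.85 in the other 8; without these 2 libraries 6 of 11 fell and 1 rose. Hsp90ab1, a cytosolic Hsp90, averaged 1452 ± 482 CPM with DIP and 2818 ± 412 CPM in HC11 DOX (SD, n = 10 each) with no overlap. In 4T1 relative to HC11 DOX, 9 of 11 rose and 1 fell (median 0.59), with Hsp90aa1 at 1768 ± 85.5 CPM (SD, 8 libraries of 4T1) against 544 ± 201 CPM (SD, 10 libraries of HC11 DOX). Relative to HC11 DOX + DIP, 8 of 11 were higher in 4T1 and 1 lower (median 1.05).

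Of the receptor's coregulators, 1 rose and 2 fell of 11 with DIP (median -0.07), and 2 rose and 2 fell without HC11 DOX + DIP libraries 8 and 10. Ncoa1, a p160 coactivator, rose by 0.65 ± 0.16 (SE) and Smarca4, a chromatin remodeller, fell by 0.72 ± 0.11 (SE) on the log2 scale. In 4T1 relative to HC11 DOX, 10 of 11 fell and 1 rose (median -0.80). Relative to HC11 DOX + DIP, 8 of 11 were lower and 2 higher (median -0.65).

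Of 6 genes of steroid metabolism and transport and the mineralocorticoid receptor, 2 rose and 2 fell with DIP (median 0.54), the falls being of the efflux pump genes Abcb1a and Abcb1b; without libraries 8 and 10, 3 rose and 2 fell. In 4T1 relative to HC11 DOX, 3 were higher and 2 lower (median 0.80). Hsd11b1, whose enzyme regenerates active glucocorticoid, averaged 0.748 ± 0.147 CPM over the 8 libraries of 4T1 (SD), against 5.16 ± 2.24 CPM over the 10 of HC11 DOX, with no overlap. Relative to HC11 DOX + DIP, 2 of 6 were higher in 4T1 and 2 lower (median 0.63).

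Of 11 substrates and partners of the genes' products, 4 rose and 2 fell with DIP (median -0.11), also without libraries 8 and 10. Among them were the Sgk1 substrates Foxo3 (log2 1.90 ± 0.23 SE), Foxo1 (1.37 ± 0.32) and Nedd4l (1.06 ± 0.20). In 4T1 relative to HC11 DOX, 7 of 11 fell and 1 rose (median -0.63), so that the share called was near the 69.9% of all genes. Egfr, the receptor that Errfi1 inhibits, averaged 2.85 ± 0.933 CPM over the 8 libraries of 4T1 (SD), against 65.4 ± 10.8 CPM over the 10 of HC11 DOX. Relative to HC11 DOX + DIP, 8 of 11 were lower in 4T1 and 1 higher (median -0.59).

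Nearest relatives of the genes were mixed. With DIP, 4 of 15 rose and 4 fell (median 0.04), and without libraries 8 and 10 6 rose and 4 fell. Tsc22d1, a relative of Tsc22d3, fell by 1.35 ± 0.26 (SE) on the log2 scale. In 4T1 relative to HC11 DOX, 3 of 13 were higher and 6 lower (median -0.26). The phosphatase genes Dusp5 and Dusp4 were at 3.05 ± 0.26 (SE) and 1.70 ± 0.28 on the log2 scale, against -0.93 for Dusp1. Relative to HC11 DOX + DIP, 4 of 13 were higher in 4T1 and 6 lower (median -0.31).

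**Figure D5:**
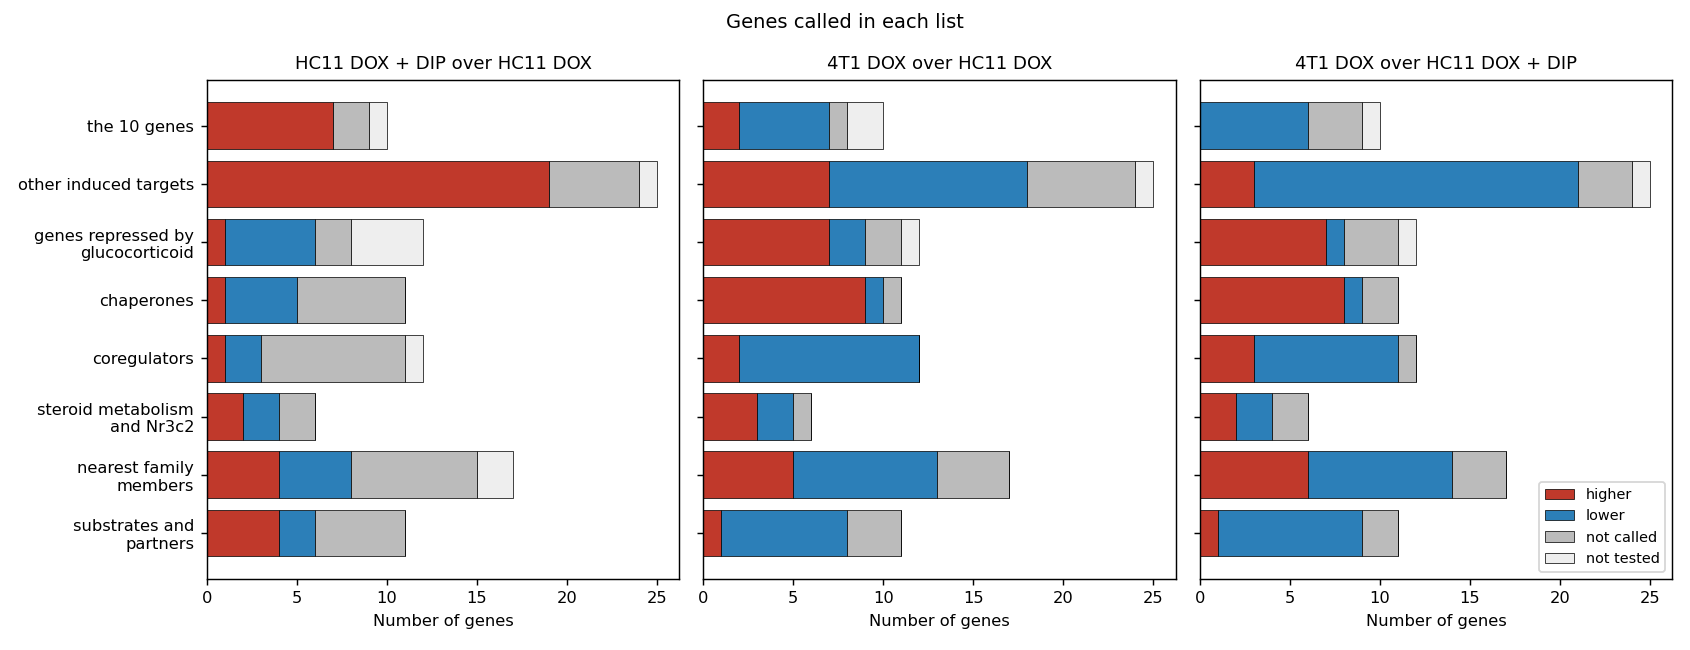
Number of genes (horizontal axis) called higher, called lower or not called in each gene list (rows), in 3 panels for HC11 DOX + DIP over HC11 DOX, 4T1 DOX over HC11 DOX, and 4T1 DOX over HC11 DOX + DIP, over all genes tested, including those kept by the filter through 1 group. Of the further induced genes 19 of 24 are higher with DIP, and of the chaperones 9 of 11 are higher in 4T1 than in HC11 DOX.

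Markers of other cell types were counted beside these lists. The 4 fibroblast markers summed to 2.57 to 249 CPM in HC11 DOX + DIP, 8.94 to 14.4 CPM in 4T1 and 27.9 to 64.4 CPM in HC11 DOX. The 4 adipocyte markers summed to 0.191 to 125 CPM with DIP, 0.0920 to 0.207 CPM in 4T1 and 0.0998 to 5.21 CPM in HC11 DOX. In HC11 DOX + DIP nearly all of it was Fabp4 (0.134 to 125 CPM), while Adipoq, Plin1 and Cidec reached at most 0.333 CPM in a library. The 4 endothelial markers summed to 0.270 to 1.56 CPM with DIP, 0.115 to 0.310 CPM in 4T1 and 3.29 to 5.23 CPM in HC11 DOX. Most of it was Pecam1, while Cdh5, Kdr and Tek reached at most 0.0951 CPM in a library. The 5 leukocyte markers summed to 2.77 to 12.5 CPM with DIP, 3.57 to 9.50 CPM in 4T1 and 1.75 to 3.17 CPM in HC11 DOX, nearly all of it Cd68, while the defining marker Ptprc had 4 counts with DIP, 28 in 4T1 and 9 in HC11 DOX. The part of the fibroblast and adipocyte markers in the results was not tested.

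The genes whose profiles over the 28 libraries lay closest to 3 of the genes were found by the root mean square difference of centred log2 CPM, among 10376 genes. Closest to Tsc22d3 was Cst3, a secreted protease inhibitor (0.40, against a median of 2.12 over the genes compared), at a mean of 3809 CPM with DIP, 112 CPM in 4T1 and 208 CPM in HC11 DOX. Aldh6a1 (0.70) and Btg2 (0.73) came next. Closest to Fkbp5 were Ggact (0.56), Spsb1 (0.57) and Hist1h4i (0.57, median 1.43), the last a histone gene with near-identical copies whose count is uncertain. Closest to Nr3c1 were Cpne3 (0.17), Ppp1r12a (0.18) and Pdcl (0.19, median 0.61).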

How the data were processed

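Total RNA extracted with TRIzol was sequenced after ribosomal RNA removal (NEBNext Ultra II), per the labels' protocols. Each of the 28 libraries has 1 deposited file of whole, unnormalized counts of reads per gene. Per the submitters' processing notes the tools include fastp 0.23.2 and featureCounts 2.0.1, and the build is GRCm39. The aligner is not given in the sources used here, nor is the strand setting. Libraries were grouped by the cell line and treatment labels; their numbers are names only. No 2 libraries of a group were copies (lowest chi-square per degree of freedom 16.3).

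Symbols and exon lengths came from GENCODE vM21, matched by identifier, and promoters from RefSeq on GRCm38.p6. Each comparison was fitted on all genes of its 2 groups with edgeR 4.0.16 in R 4.3.3 (filterByExpr, TMM, robust glmQLFit, glmQLFTest, Benjamini-Hochberg adjustment), and called at an adjusted p under 0.05. A fold is 2 to the power of the fitted log2 fold change; its SE is its size over the square root of F. CPM used TMM factors over 28 libraries, and log2 CPM a prior count of 2. The fits were tested on simulated data. For DIP in HC11, 25.8% of simulated 1.5-fold changes, 56.3% of 2-fold and 79.1% of 4-fold changes were called. Of 2-fold changes, 66.2% were called for 4T1 relative to HC11 DOX and 59.4% relative to HC11 DOX + DIP. A gene not called is therefore not shown to be unchanged.

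The genes and lists were chosen with earlier results of these data known, and lists support nothing independently. All 139 listed names matched. Of each list, the 3 called genes of largest change were eligible to be named if their log2 CPM averaged at least 1, with the 3 closest profiles for Fkbp5, Tsc22d3 and Nr3c1; Spidr and Ergic1 were added after the overlap was seen, and Csn2 and Mki67 as context. Alternatives were DESeq2 1.42.0, limma 3.58.1 voom, other scalings, no filter on low counts, a fit of all libraries, and leaving out libraries. Fits and list counts without HC11 DOX + DIP libraries 8 and 10 were chosen after seeing the data. So were counts over the genes at the filter level in at least 80% of the libraries of both groups.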

Additional observations from a re-analysis of the deposited data

Results flagged for a closer look

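Zbtb16 in 4T1 had 1 library far from the rest of its group. Library 1 was at 0.0292 CPM, which is 5 counts, and the nearest library was at 0.0123 CPM; the gap was 0.579 of the group's whole range, above Dixon's 95% critical value of 0.526 for 8 libraries. It was the only one flagged of 30 gene and group sets. Chance flags about 1 in 20 where values are normally distributed, which cannot be assumed for 0 to 5 counts. The check uses the gap to the nearest library, so it can miss 2 libraries that lie together. HC11 DOX + DIP libraries 8 and 10 lay together for Cebpd, at 12.9 and 18.5 CPM, and were not flagged.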

How the results depend on the processing

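No paired analysis was possible because the labels carry no replicate number. Over the alternatives for single genes, 658 values kept their direction and side of the threshold, 12 passed it, 4 no longer passed it and 3 changed sign. The changes of sign were Sgk1 with DIP under limma voom (log2 -0.11) and Errfi1 in 4T1 relative to HC11 DOX + DIP under voom (0.10) and without HC11 DOX + DIP replicate 2 (0.07); none of these was called, and the cause was not tested. The count of genes lower with DIP in HC11 was 1 in the fit of all 28 libraries and 0 to 1 when 1 library was left out, the gene being Nr3c1. In that fit of all 28 libraries the count lower in 4T1 relative to HC11 DOX was 3, since Tsc22d3 (-0.66, adjusted p = 0.0791) and Sgk1 (-0.65, adjusted p = 0.0965) were not called. Sgk1 in 4T1 relative to HC11 DOX + DIP was called lower under DESeq2 (-0.88, adjusted p = 0.0330), the DESeq2-type size factors in edgeR (-0.88, 0.0440), total counts only (-1.06, 0.0164), the fit of all libraries (-0.83, 0.0310), and without library 8 (-0.91, 0.00867) or 10 (-0.97, 0.00906). Libraries 8 and 10 held the lowest Sgk1 of their group, so leaving either out enlarges that fall. Errfi1 in the same comparison was at -0.28 without HC11 DOX + DIP replicate 10. Scaling by total counts only moved the median of all genes to -0.24 in 4T1 relative to HC11 DOX. Depth limits Hif3a, with at most 20 counts in a library of any group, and Zbtb16 in 4T1, with at most 5 counts in a library.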
